A study of Mus musculus with 16 samples.

Results

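Mouse genes with a symbol that begins with Kcn and belongs to the families Kcna to Kcnv were followed through dorsal root ganglia of 4 groups of mice. They encode the voltage-gated, inwardly rectifying, calcium-activated and sodium-activated potassium channels and their accessory subunits. Every Kcnk gene (the leak channels) and Kcnj10 (a glial channel) was left out. The symbol rule took 78 of 24982 gene entries, 4 of which are antisense or opposite-strand transcripts (Kcnd3os, Kcnmb4os1, Kcnmb4os2 and Kcnq1ot1). Of the 78, 69 had enough counts to be tested. The 9 others were Kcna7, Kcne1, Kcne2, Kcnh4, Kcnj1, Kcnj5, Kcnmb3, Kcnmb4os1 and Kcnv2.

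Potassium channels carry outward current that sets the resting potential of a neuron, ends each action potential and limits repetitive firing. In sensory neurons the Kv1 channels sit beside the nodes of Ranvier and damp excitability, Kv2 to Kv4 channels shape repolarisation, and Kv7 channels give the slowly activating M-type current. Silent subunits (Kv5, Kv6, Kv8 and Kv9) form no channel alone and modify Kv2 channels, and Kir channels, BK, SK and sodium-activated channels tie the membrane to metabolism, calcium and sodium.

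RNA was sequenced from the lumbar ganglia L4 to L6 of C57BL/6 mice aged 10 to 12 weeks. The mice were wild type (WT) or TrkA/C knock-in (KI), and the ankle of the sampled side had received either vehicle (saline in the sample titles) or complete Freund's adjuvant (CFA, an emulsion that causes lasting inflammation) 14 days earlier. The groups were WT vehicle, WT CFA, KI vehicle and KI CFA with 4 libraries each, and a library pooled 6 ganglia of 2 mice. The labels do not describe the knock-in construct, nor whether the libraries of a group are independent litters, so p-values measure the spread between these libraries. In a whole ganglion, fewer cells of a type and less RNA per cell cannot be told apart.

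Library totals ran from 22742209 to 40910947 counts. WT CFA 1 has a knock-in genotype tag that goes against its title. Its level of Ntrk3, which encodes the TrkC receptor, was 48.4 CPM (counts scaled to a common library size with TMM factors), within the WT range of 29.3 to 61.4 and below the KI range of 99.1 to 138. It was kept with the title's group, and counts without it are given beside the results. WT vehicle 4 stood apart: it was the lowest library of its group for 39 of the 69 tested channel genes (56.5%, against 35.5% of all genes tested), with a median deviation of -0.24 on the log2 scale. Its Ntrk3 level of 29.3 CPM was the lowest of the WT libraries, and the next was 44.4 CPM in WT CFA 4. KI vehicle 1 and KI vehicle 4 held skeletal muscle transcripts, with a summed level of 931 and 867 CPM over 11 muscle genes. The WT libraries held 4.07 to 82.1 CPM. KI vehicle 3 also lay above that range, at 128 CPM.

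The tissue held neurons and glia by its markers. For the pan-neuronal list 5 of 5 genes were tested, and their summed level was 9171 to 9992 CPM in WT and 8247 to 9745 CPM in KI. In KI 1 of the 5 (Tubb3) fell on average over injections. Satellite glia genes summed to 2909 to 4569 CPM in WT and 2737 to 3484 CPM in KI. The highest WT value was that of WT vehicle 4, and the next was 3597 CPM in WT vehicle 3. Schwann cell genes summed to 3175 to 5050 CPM in WT and 3374 to 4799 CPM in KI. Markers of neuron classes moved with genotype. Over all genes tested, 4.33% rose and 4.64% fell in the average over injections, which the counts below also use. For the A-fibre list 6 of 9 genes rose in KI, and the mean log2 CPM was 6.59 to 6.85 in WT libraries and 7.14 to 7.49 in KI libraries. As a summed level the A-fibre list overlapped between genotypes, at 3362 to 4393 CPM in WT and 3902 to 5124 CPM in KI. All 6 peptidergic markers fell, with a mean log2 CPM of 7.41 to 7.90 in WT and 6.30 to 6.53 in KI. Of the non-peptidergic markers 4 of 6 rose, with a mean log2 CPM of 7.85 to 8.21 in WT and 8.26 to 8.42 in KI. Summed levels of the peptidergic list did not overlap (1999 to 3005 CPM in WT, 1165 to 1395 CPM in KI). Nor did those of the non-peptidergic list (1717 to 2226 CPM in WT, 2285 to 2576 CPM in KI). WT vehicle 4 had the lowest A-fibre and non-peptidergic levels of the WT libraries and the highest peptidergic level. Muscle genes rose for 9 of 11, and 1 of 4 fibroblast genes and 1 of 6 endothelial and mural genes rose. The satellite glia, Schwann cell and macrophage lists had 0 of 5 genes each past the test in the average over injections, and the erythroid list had 0 of 1 tested. These shifts stand beside every genotype difference given here, and their part in those differences was not tested.

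The channel genes were ranked by level per length (CPM per kb of exon), where the length joins all annotated exons of a gene. The length of the transcripts present in the ganglia was not measured, so the order depends on the annotation. The highest was Kcnab2, the beta subunit of Kv1 channels, at 223 ± 11.7 CPM per kb (SD over 16 libraries). Next came Kcna1 at 143 ± 11.7 and Kcna2 at 52.1 ± 5.13 CPM per kb, which encode alpha subunits of the juxtaparanodal Kv1 channel. Before division by length they stood at 684 and 620 CPM, over 4.78 and 11.9 kb of exon. Kcnd1 (Kv4, 49.5) and Kcna6 (Kv1, 40.2) followed, and further down Kcns1 (27.1), Kcnh2 (26.5) and Kcnj12 (26.3) did not differ beyond their spread. The first 3 genes made up 44.9% of the summed level per length and the first 10 made up 69.6%. At the other end, 31 of 78 entries lay under 1 CPM per kb.

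**Figure D1:**
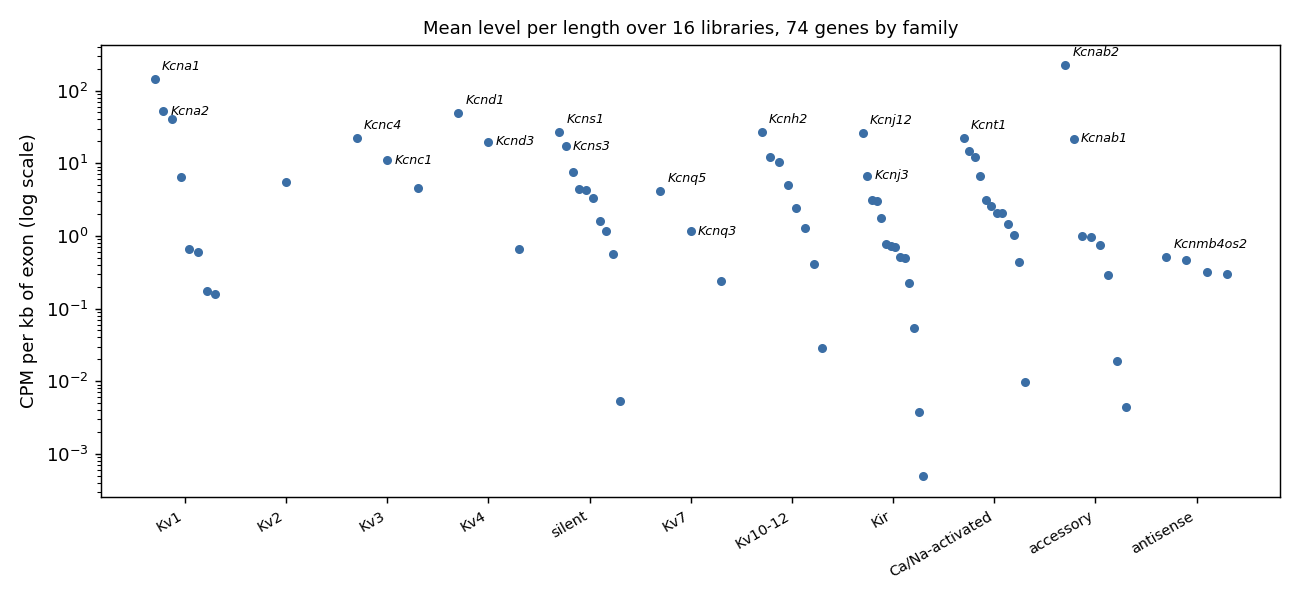
Mean level of 74 of the 78 genes over 16 libraries, in CPM per kb of exon on a log scale, grouped by channel family on the horizontal axis (the spread within a family is only for legibility). Kcnab2 at 223 and Kcna1 at 143 CPM per kb stand at the top, and 31 entries lie under 1 CPM per kb.

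The first comparison asked how the knock-in differed from WT at rest, with vehicle in both. Of the 69 channel genes, 6 rose and 3 fell (edgeR quasi-likelihood test, adjusted p under 0.05), which is 13% against 4.34% of all 15507 genes tested. Rises were 8.7% of the channel genes against 2.15% of all genes, and falls 4.35% against 2.19%. Kcnab1, Kcnj11, Kcnc1, Kcnd2, Kcnma1 and Kcnt1 were higher in KI, and Kcnq5 and Kcnv1 were among the lower. The median log2 difference was 0.13 over the channel genes and 0.00155 over all genes. Without WT vehicle 4 that median was 0.09, with 6 genes called, and without KI vehicle 4 it was 0.07, also with 6. With KI vehicle 1 and 4 left out it was 0.06, and 5 genes were called (132 of all genes, against 673 with every library). Kcnc1, Kcnd2, Kcnma1 and Kcnt1 lost their calls there, at log2 differences of 0.58 ± 0.16, 0.88 ± 0.23, 0.45 ± 0.16 and 0.23 ± 0.08, against 0.51 ± 0.13, 0.77 ± 0.19, 0.48 ± 0.12 and 0.26 ± 0.06 with every library. The 4 vehicle libraries of KI did not overlap those of WT for 21 genes (30.4%, against 14.6% of all genes). Of these 21, 12 were not called, with Kcna2, Kcnq1ot1, Kcnh7, Kcns1 and Kcnj14 at the smallest p.

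With CFA in both genotypes, 4 genes rose and 5 fell, 13% of the channel genes against 2.84% of all genes. Rises were called for 1.09% of all genes and falls for 1.75%. Kcnab1, Kcnj11, Kcnn1 and Kcns1 were higher in KI, and Kcnq5, Kcnv1, Kcng1 and Kcna6 were among the lower. Without WT CFA 1, 8 genes were called (Kcna6 was not), and without WT vehicle 4, which enters through the shared spread, 13 were. The median difference was -0.01 over the channel genes and turned to 0.02 to 0.04 without WT CFA 1, WT CFA 2, KI CFA 1 or KI CFA 2. Groups did not overlap for 14 genes (20.3%, against 8.13%), and 5 of these were not called (Kcnc1, Kcns3, Kcnt1, Kcnmb2 and Kcnj14).

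Averaged over both injections, 9 channel genes rose and 10 fell, 27.5% against 8.96% of all genes. Over all genes, 4.33% rose and 4.64% fell. Without WT CFA 1 this count of 19 became 18, with Kcnma1 and Kcnn2 no longer called and Kcnq1ot1 newly called. With KI vehicle 1 and 4 left out it was 15, and Kcng1, Kcng4, Kcnma1 and Kcnmb2 were no longer called. All 8 KI libraries lay above or below all 8 WT libraries for 10 genes (14.5%, against 2.3% of all genes), and each of the 10 was called. With vehicle and with CFA, 5 genes were called in the same direction, 55.6% of the 9 calls on either side, and Kcnab1, Kcnj11, Kcnq5 and Kcnv1 were among them. The vehicle and CFA comparisons share no library. Over all 69 genes, 47 had the same sign in both. Neither count was taken over all genes tested, so neither is shown to be particular to the channel genes.

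**Figure D2:**
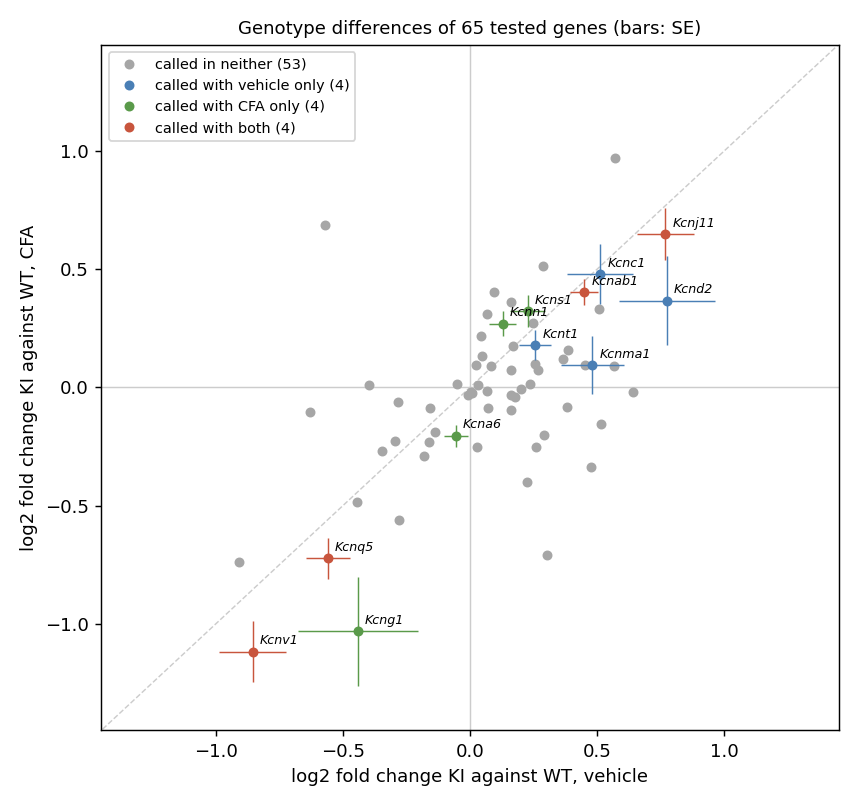
Log2 fold change of KI against WT for 65 of the 69 tested genes, with vehicle on the horizontal axis and with CFA on the vertical axis; bars on called genes are standard errors and the dashed line marks equal values. The 4 plotted genes called in both lie near the dashed line, and all 12 plotted genes called in either have the same sign on both axes.

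To show the regulatory sequence of genes that moved in opposite directions, the 250 bases before the transcription start are given for the called genes with the smallest p that have a RefSeq window (GRCm38.p6) lying outside the GENCODE gene, 2 that rose and 1 that fell. The stretch of Kcnab1 is chr3:65108764-65109013 on the plus strand, before a RefSeq start that lies 370 bases upstream of the GENCODE start. That of Kcns1 is chr2:164171114-164171363 and that of Kcnq5 is chr1:21961943-21962192, both on the minus strand. Capitals mark a match to any of the motifs listed after the sequences, and Kcns1 alone has a match, on its reverse strand (CCGCCC).
Kcnab1: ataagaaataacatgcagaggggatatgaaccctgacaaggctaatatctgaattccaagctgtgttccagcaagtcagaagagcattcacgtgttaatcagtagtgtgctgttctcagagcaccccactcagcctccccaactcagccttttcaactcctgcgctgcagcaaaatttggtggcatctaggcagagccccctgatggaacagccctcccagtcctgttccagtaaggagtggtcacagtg
Kcns1: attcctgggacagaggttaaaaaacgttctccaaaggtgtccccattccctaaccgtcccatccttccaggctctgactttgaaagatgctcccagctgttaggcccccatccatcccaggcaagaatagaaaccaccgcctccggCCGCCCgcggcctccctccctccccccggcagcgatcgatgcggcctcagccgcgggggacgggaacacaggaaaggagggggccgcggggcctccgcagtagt
Kcnq5: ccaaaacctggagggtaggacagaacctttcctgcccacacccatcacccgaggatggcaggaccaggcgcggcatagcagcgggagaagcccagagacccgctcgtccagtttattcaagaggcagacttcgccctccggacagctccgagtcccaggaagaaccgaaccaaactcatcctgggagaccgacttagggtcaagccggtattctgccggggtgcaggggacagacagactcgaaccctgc

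The motifs were searched on both strands in windows from 250 bases before to 50 after the start. A promoter window was found for 55 of the 78 genes (71 windows) and for 11 of the 19 called ones. The GC box GGGCGG was in 34 of 71 windows of channel genes (47.9%) and in 35.7% of all 32851 windows. TGTGGT, the core of the RUNX motif, was in 12.7% against 16.8%, and TATAAA in 7.04% against 13.6%. The cyclic AMP response element TGACGTCA was in 0 of 71 windows and in 1.79% of all. Median GC content was 58.0% in the channel windows and 52.7% in all windows.

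Kcnq5, of the Kv7 family, encodes an alpha subunit of the M-type channels and was called. It stood at 41.4, 38.6, 34.5 and 35.2 CPM in WT vehicle and at 27.7, 21.8, 26.5 and 25.8 CPM in KI vehicle. In the CFA groups it was 39.6, 40.9, 43.8 and 37.0 CPM in WT and 22.3, 22.6, 25.9 and 26.9 CPM in KI. Every KI library lay below every WT library, and the averaged log2 difference was -0.64 ± 0.06 (edgeR adjusted p = 3.24e-06). Exons of Kcnq5 overlap an entry of the other strand over 237 of 7689 bases. Such overlaps touch 7 of the 19 called genes (among them Kcna6, Kcnab1, Kcnma1, Kcnn1, Kcnn2 and Kcnq5). The strand mode of counting is not given, so whether reads within the overlapping bases were told apart is not known.

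Kcnq3 and Kcnq1, of the same family, did not pass the test. Kcnq3, a subunit of the M-channel, had an averaged log2 difference of 0.00 (95% interval -0.26 to 0.27). Kcnq1, a low gene at 0.239 CPM per kb, had -0.09 with a wide interval of -0.47 to 0.29.

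Among the silent subunits, 4 of 9 tested genes fell and 1 rose when injections were averaged. Over all genes, 4.64% fell and 4.33% rose in that average. Kcnv1 encodes the Kv8 subunit that reduces Kv2 current. It measured 40.5, 42.6, 37.7 and 49.2 CPM in WT vehicle against 24.6, 26.5, 23.2 and 19.5 CPM in KI vehicle. After CFA, WT libraries held 44.5, 46.7, 63.0 and 46.7 CPM and KI libraries 29.1, 19.7, 22.1 and 21.7 CPM. No KI library reached the lowest WT library, and the KI mean was 50.3% of the WT mean. The log2 difference was -0.86 ± 0.13 with vehicle and -1.12 ± 0.13 with CFA (edgeR adjusted p = 8.43e-05 with CFA).

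Kcng1 encodes a Kv6 subunit and is a low gene. It was at 3.12, 3.80, 5.27 and 3.40 CPM in WT CFA and 1.65, 1.21, 2.57 and 2.14 CPM in KI CFA, groups that do not overlap, with a log2 difference of -1.03 ± 0.23 (edgeR adjusted p = 0.0167). That call was lost without WT CFA 3, KI CFA 1 or KI CFA 2. With vehicle the groups overlapped (2.22 to 2.96 CPM in WT and 1.43 to 2.31 CPM in KI) and the difference was -0.44 ± 0.24 (edgeR adjusted p = 0.266). The averaged difference of -0.74 ± 0.16 was called, but not with KI vehicle 1 and 4 left out (-0.67 ± 0.19, edgeR adjusted p = 0.0537). Kcng4, of the same Kv6 class, averaged 18.3 ± 1.40 CPM in WT and 14.8 ± 1.93 CPM in KI (SD, n = 8). The genotypes overlapped, and its averaged log2 difference was -0.31 ± 0.07 (edgeR adjusted p = 0.0137). With KI vehicle 1 and 4 left out it was -0.25 ± 0.08 and not called (edgeR adjusted p = 0.0867).

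The called Kv9 genes, Kcns1 and Kcns3, moved in opposite directions. Kcns2, also a Kv9 gene, averaged 5.89 ± 1.30 CPM in WT and 7.00 ± 1.29 CPM in KI (SD, n = 8) and was not called. Kcns1, a subunit of large sensory neurons, was at 71.3, 65.8, 65.9 and 66.0 CPM in WT vehicle and 76.9, 84.5, 78.5 and 74.8 CPM in KI vehicle. With CFA it was at 66.5, 64.9, 62.4 and 69.7 CPM in WT and 75.9, 91.7, 89.1 and 73.2 CPM in KI. Every KI library exceeded every WT library, with an averaged log2 difference of 0.28 ± 0.05 (edgeR adjusted p = 0.0012). The CFA call alone was lost without KI CFA 2 or KI CFA 3. Kcns3 averaged 58.1 ± 4.27 CPM in WT and 50.8 ± 3.74 CPM in KI (SD, n = 8), a log2 difference of -0.20 ± 0.05 (edgeR adjusted p = 0.0125).

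**Figure D3:**
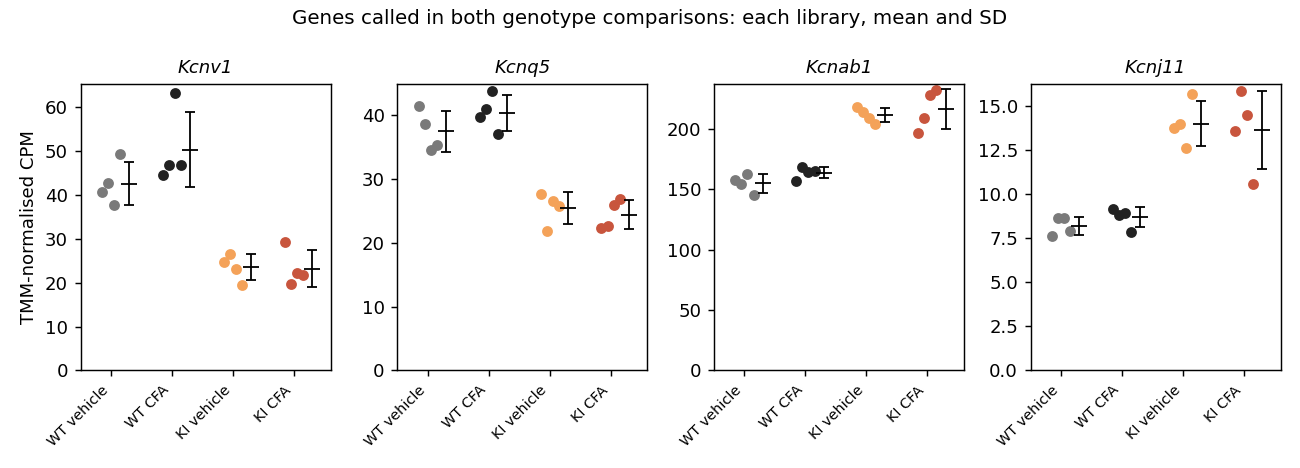
TMM-normalised CPM of 4 genes called with both injections in each of the 4 groups; each point is a library and the bar beside it is the mean with the SD (n = 4). Kcnv1 and Kcnq5 lie lower in every KI library than in any WT library, and Kcnab1 and Kcnj11 lie higher.

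In the Kv1 group an accessory subunit gene rose on average, and 1 of 7 tested alpha subunit genes fell, beside 4.64% of all genes. Kcnab1 encodes a beta subunit that speeds inactivation of Kv1 channels. It was at 157, 154, 163 and 145 CPM in WT vehicle and at 218, 214, 209 and 204 CPM in KI vehicle. With CFA it was at 157, 168, 164 and 165 CPM in WT and at 197, 209, 228 and 232 CPM in KI. The genotypes did not overlap, and the log2 difference was 0.45 ± 0.05 with vehicle and 0.40 ± 0.05 with CFA (edgeR adjusted p = 1.54e-06 for the average). The beta subunit gene Kcnab2 gave -0.02 (95% interval -0.10 to 0.07), and Kcnab3 gave 0.40 ± 0.15 without passing (edgeR adjusted p = 0.0972).

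Kcna6 is the alpha subunit gene that was called. It was lower in KI CFA (228, 211, 216 and 242 CPM) than in WT CFA (261, 256, 261 and 256 CPM), with no overlap and a log2 difference of -0.20 ± 0.05 (edgeR adjusted p = 0.0191). With vehicle the ranges overlapped (238 to 247 CPM in WT and 222 to 242 CPM in KI), at -0.06 ± 0.05. The CFA call was lost without WT CFA 1, 2 or 3 or KI CFA 2 or 3, and the averaged call without KI CFA 2 or KI CFA 3. An opposite-strand entry covers 2355 of its 5945 exon bases. Kcna1 showed -0.01 (95% interval -0.13 to 0.11), and Kcna2 showed 0.17 ± 0.05, just over the threshold (edgeR adjusted p = 0.0515).

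Kv3 channels allow fast spiking. Kcnc1, which encodes an alpha subunit of this family, rose on average. It was at 91.1, 95.2, 82.8 and 67.1 CPM in WT vehicle and 110, 145, 105 and 119 CPM in KI vehicle. In the CFA groups it was at 90.5, 91.7, 88.3 and 81.2 CPM in WT and 99.6, 151, 135 and 105 CPM in KI. All 8 KI libraries exceeded all 8 WT libraries, and the averaged log2 difference was 0.50 ± 0.09 (edgeR adjusted p = 0.00174). Its call with vehicle alone was lost without WT vehicle 3, WT vehicle 4, KI vehicle 2 or KI vehicle 4. Kcnc2 and Kcnc4 did not pass.

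In the Kv4 family, which gives fast A-type current, Kcnd2 rose and the abundant genes did not pass. Kcnd2 was at 3.29, 2.50, 3.00 and 1.56 CPM in WT vehicle and 4.45, 4.88, 4.64 and 3.71 CPM in KI vehicle. The groups did not overlap with vehicle but did with CFA. Its log2 difference was 0.77 ± 0.19 with vehicle (edgeR adjusted p = 0.0298) and 0.37 ± 0.19 with CFA (edgeR adjusted p = 0.445). The vehicle call was lost without WT vehicle 4 or without KI vehicle 1, 2 or 3. Kcnd1, at 49.5 CPM per kb, had -0.01 (95% interval -0.09 to 0.07), and Kcnd3 had 0.13 (-0.04 to 0.29).

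Partner proteins of these channels were read as a fixed list of 36 genes, 32 of them tested. Averaged over injections 5 rose and 2 fell, beside 8.96% called over all genes. Of these 7, 4 are Kv4 partners, and they did not all move in the same direction. The Kv4 partners Kcnip1 and Dpp6 were not called. Kcnip1 averaged 36.9 ± 2.96 CPM in WT and 37.3 ± 3.78 CPM in KI (SD, n = 8). Dpp6 averaged 566 ± 34.0 CPM in WT and 543 ± 20.7 CPM in KI (SD, n = 8). Kcnip2, which encodes a calcium-binding Kv4 subunit, was 107 to 122 CPM in the WT libraries and 120 to 145 CPM in the KI libraries (log2 difference 0.25 ± 0.03, edgeR adjusted p = 7.91e-05). Kcnip3, of the same family and also a transcriptional repressor, was 263 to 340 CPM in WT and 229 to 269 CPM in KI (-0.32 ± 0.04, edgeR adjusted p = 0.000103). Both overlapped slightly between genotypes. Dpp10 (0.22 ± 0.04) and Kcnip4 (0.15 ± 0.04), also Kv4 partners, and Ank3 (0.22 ± 0.06), the axonal anchor ankyrin G, rose as well. Lgi1, a secreted protein linked to Kv1 channels, fell (-0.19 ± 0.04).

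An inward rectifier gene had the largest called rise among the channel genes when injections were averaged. Kcnj11 encodes the pore of the ATP-sensitive channel, which opens when the energy state of a cell falls. It was at 7.64, 8.66, 8.61 and 7.90 CPM in WT vehicle and 13.7, 14.0, 12.6 and 15.6 CPM in KI vehicle. With CFA it stood at 9.13, 8.80, 8.94 and 7.87 CPM in WT and 13.6, 15.8, 14.5 and 10.6 CPM in KI. Every KI library exceeded every WT library, and the KI mean was 163% of the WT mean. The averaged log2 difference was 0.71 ± 0.08 (edgeR adjusted p = 1.38e-05).

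Abcc8, the sulfonylurea receptor that pairs with Kcnj11 in neurons, rose alongside it. It ranged from 9.38 to 13.0 CPM in WT and from 13.4 to 18.6 CPM in KI without overlap (log2 difference 0.50 ± 0.08, edgeR adjusted p = 0.000545). Kcnj14 was low and fell, averaging 1.78 ± 0.37 CPM in WT and 1.01 ± 0.31 CPM in KI (SD, n = 8), without overlap (log2 difference -0.82 ± 0.21, edgeR adjusted p = 0.0163). The G protein-gated Kcnj3 gave 0.02 (95% interval -0.10 to 0.14) and the abundant Kcnj12 gave 0.09 (-0.01 to 0.19).

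Calcium- and sodium-activated channels had 11 tested genes, of which 3 rose and 2 fell on average (4.33% and 4.64% over all genes). Kcnt1 encodes the sodium-activated channel Slack. It was at 201, 202, 193 and 159 CPM in WT vehicle, 215, 197, 203 and 204 CPM in WT CFA, 233, 216, 225 and 228 CPM in KI vehicle and 221, 232, 234 and 241 CPM in KI CFA. The 8 KI libraries all exceeded the 8 WT libraries, by a small step of 0.22 ± 0.04 on the log2 scale (edgeR adjusted p = 0.00387). With vehicle alone its call was lost without WT vehicle 3 or KI vehicle 1, 3 or 4.

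Kcnn1, an SK channel gene, averaged 52.3 ± 2.18 CPM in WT and 60.0 ± 3.19 CPM in KI (SD, n = 8), again without overlap (0.20 ± 0.04, edgeR adjusted p = 0.00194). Its paralog Kcnn2 went the other way, from 16.9 ± 0.87 to 14.1 ± 1.76 CPM (SD, n = 8, log2 difference -0.26 ± 0.07, edgeR adjusted p = 0.0287), and lost its call without WT CFA 1 or 2, KI vehicle 2 or 3 or KI CFA 2 or 3. Kcnmb2, a BK beta subunit, fell from 7.48 ± 1.6 to 5.41 ± 0.83 CPM (SD, n = 8, -0.47 ± 0.12, edgeR adjusted p = 0.0195). With KI vehicle 1 and 4 left out its difference was -0.46 ± 0.14 and no longer called (edgeR adjusted p = 0.0638).

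Kcnma1 encodes the BK pore. It was at 44.9, 36.7, 35.7 and 26.6 CPM in WT vehicle and 48.3, 52.4, 45.4 and 55.0 CPM in KI vehicle, where the groups did not overlap (0.48 ± 0.12, edgeR adjusted p = 0.0365). With CFA the ranges were 38.8 to 51.4 CPM in WT and 41.5 to 51.2 CPM in KI (0.09 ± 0.12, edgeR adjusted p = 0.879). Its vehicle call was lost without WT vehicle 3 or 4 or KI vehicle 1, 2 or 4. The averaged call was lost without any of 12 libraries, and was kept when WT vehicle 1, WT CFA 2, KI vehicle 3 or KI CFA 2 was the library left out.

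In the averaged comparison the Kv10 to Kv12 family had 0 of 7 tested genes past the threshold, beside 8.96% of all genes. Its log2 differences ran from -0.42 to 0.27. Kcnh2, which encodes the erg channel and is the most abundant at 26.5 CPM per kb, gave 0.17 ± 0.06 (edgeR adjusted p = 0.0678). Kcnh5 gave -0.42 ± 0.14 (edgeR adjusted p = 0.0634). Of the antisense entries, Kcnq1ot1, a long noncoding RNA of the Kcnq1 locus, had 0.24 ± 0.08 and missed the threshold (edgeR adjusted p = 0.0522).

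**Figure D4:**
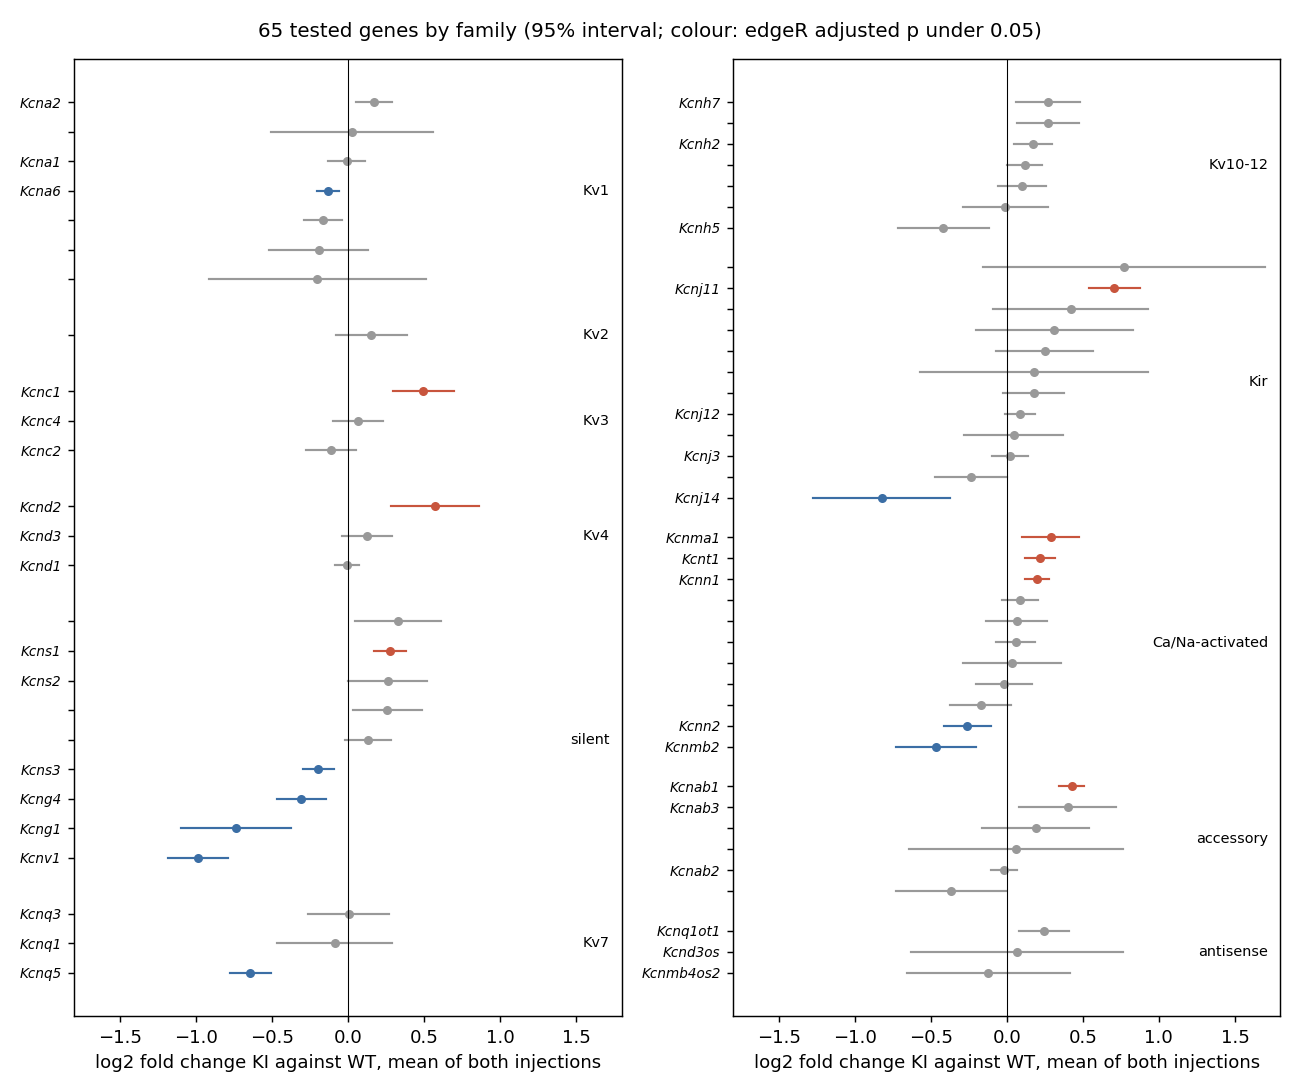
Log2 fold change of KI against WT averaged over both injections for 65 of the 69 tested genes by family (genes named in the text are labelled); points are estimates, bars are 95% intervals, and red and blue mark genes that rose or fell at an edgeR adjusted p under 0.05. The 17 coloured genes are spread over 8 families, and the Kv10 to Kv12 and antisense groups are among those that hold none.

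Among genes under the filter, Kcna7, a Kv1 gene of skeletal and heart muscle, had 32 counts in KI vehicle 1 and 84 in KI vehicle 4, and 0 to 8 counts in each of the other libraries. Those are the libraries with the highest muscle transcripts. Adding the muscle score of each library to the fit left 12 of the 19 averaged calls, and 746 of the 1390 over all genes. Among those that lost the call, the log2 difference was as large or larger for Kcnj14 (-0.82 ± 0.21 before, -0.91 ± 0.26 with the score), Kcnn2 (-0.26 ± 0.07 and -0.30 ± 0.09), Kcnma1 (0.29 ± 0.09 and 0.30 ± 0.10), Kcns3 (-0.20 ± 0.05 and -0.20 ± 0.06) and Kcna6 (-0.13 ± 0.03 and -0.13 ± 0.04). It was smaller for Kcng1 (-0.74 ± 0.16 and -0.63 ± 0.19) and Kcng4 (-0.31 ± 0.07 and -0.23 ± 0.08). Kcnab1, Kcnj11, Kcnq5 and Kcnv1 stayed called.

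CFA against vehicle addressed the effect of joint inflammation. In WT, 0 of 69 channel genes passed the edgeR threshold (0% of all genes), and 6 had an unadjusted p under 0.05 (8.7%, against 6.96% of all genes). In KI, 0 passed (0% of all genes) and 7 had an unadjusted p under 0.05 (10.1%, against 5.68%). Averaged over genotypes, 0 passed against 0.0258% of all genes, and 6 had an unadjusted p under 0.05 (8.7%, against 6.57%). DESeq2 and limma-voom also called 0 in the 3 comparisons.

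The smallest unadjusted p values for CFA in WT belonged to Kcng1 and Kcnq1. Kcng1 was 2.22 to 2.96 CPM in the WT vehicle libraries and 3.12 to 5.27 CPM in the WT CFA libraries, which do not overlap, but the difference did not pass (log2 difference 0.65 ± 0.23, edgeR adjusted p = 0.703). In KI it was 1.43 to 2.31 CPM with vehicle and 1.21 to 2.57 CPM with CFA. Kcnd1 had a log2 difference of 0.11 ± 0.04 averaged over genotypes (edgeR adjusted p = 0.523), and Kcns2 had -0.34 ± 0.12 (edgeR adjusted p = 0.545). Over the 19 called genes the CFA difference ran from -0.18 to 0.65 in WT and from -0.25 to 0.16 in KI.

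Whether genotype differences changed with CFA was tested as an interaction. No channel gene passed (0%, as for all genes), 3 had an unadjusted p under 0.05 (4.35%, against 6.29% of all genes), and DESeq2 and limma-voom also called 0. Genes called with 1 injection only are therefore not shown to differ between injections. Kcnma1 had an interaction of -0.39 ± 0.17, Kcng1 of -0.59 ± 0.33 and Kcnd2 of -0.41 ± 0.27 on the log2 scale. Of genes called with both injections it was -0.26 for Kcnv1, -0.16 for Kcnq5, -0.12 for Kcnj11 and -0.05 for Kcnab1.

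**Figure D5:**
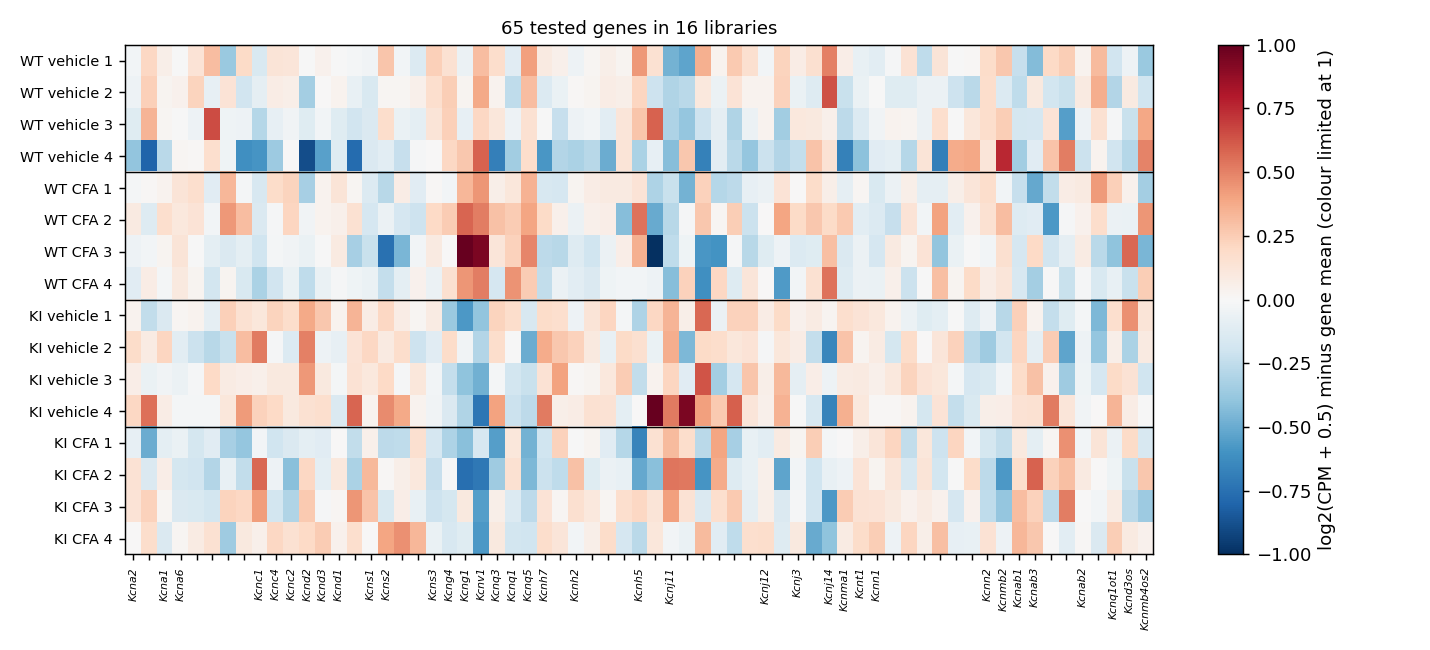
Deviation of 65 tested genes (columns, by family, labelled where the text names them) in each of 16 libraries (rows) from that gene's mean over all libraries, as log2(CPM + 0.5), with colours limited at a deviation of 1. Kcnv1 and Kcnq5 switch from red in WT to blue in KI, and WT vehicle 4 is blue for many genes.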

How the data were processed

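Gene expression was measured by poly-A RNA sequencing (single reads of 50 bases, 15 PCR cycles, 150 ng of RNA, per the labels' protocols) in 16 libraries. The submitters' processing notes name TopHat2 2.1.1 (with Bowtie2 2.3.5.1) and HTSeq 0.6.1p1 as tools and mm10 as build. Strand mode and annotation are not given in the sources used here. The deposited values are raw counts per gene that the authors did not normalize.

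Groups came from sample titles. The table was fitted whole with edgeR 4.0.16 in R 4.3.3. filterByExpr left 15507 genes, TMM factors were used, and the quasi-likelihood fit took all 16 libraries with a mean for each group. Called means an adjusted p (Benjamini-Hochberg, over all tested genes) under 0.05, and "rose" and "fell" mean called. There were 7 comparisons. SE is the log2 difference divided by the root of the F statistic, and 95% intervals use 12 residual degrees of freedom. CPM per kb uses the joined length of all GENCODE M21 exons of a gene (GRCm38) and TMM-normalised CPM. The list score for muscle is mean log2 CPM with a prior count of 2.

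The same-numbered libraries did not deviate together (median correlation -0.03 over 24 pairs), so the main fit has no pairing. Library totals are given with the report, and PCR duplicates cannot be recognised in counts. Alternatives were other size factors and filters, DESeq2 1.42.0, limma 3.58.1 (voom with quality weights), other libraries, covariates and thresholds. Genes named were those called in any comparison, a list of neuronal channel genes, the most abundant of each family, antisense entries and called partners. Some of these genes are not reported here, and counts over the set include them. The gene set, lists and rules were chosen with earlier results of these data known.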

Additional observations from a re-analysis of the deposited data

Results flagged for a closer look

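Within the 4 groups, the 19 called genes gave 76 sets of 4 libraries, and in 3 of them a single library lay far from the rest by Dixon's test at the 95% level. Chance alone flags about 1 in 20 such sets. Kcnma1 was 51.4 CPM in WT CFA 2, against 38.8 to 40.3 CPM in the other WT CFA libraries. Kcns1 was 71.3 CPM in WT vehicle 1, against 65.8 to 66.0 CPM in the other WT vehicle libraries. Kcnv1 was 63.0 CPM in WT CFA 3, against 44.5 to 46.7 CPM in the rest of WT CFA, and its CFA difference remained called without that library.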

How the results depend on the processing

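Single genes were followed through the alternatives only for the 19 called genes in the 3 genotype comparisons, and none of those differences turned direction. The median over channel genes with CFA turned from -0.01 to 0.01 with the muscle score as a covariate. The 9 calls with vehicle, out of 673 over all genes, became 17 of 1487 with DESeq2, 17 of 1999 with the split of WT libraries by number as a covariate, 5 of 214 with only the compared groups in the fit, 5 of 132 with KI vehicle 1 and 4 left out, 19 of 1721 at an adjusted p under 0.1 and 5 of 156 under 0.01. The 19 averaged calls, out of 1390, became 12 of 746 with the muscle score and 11 of 630 at an adjusted p under 0.01. The count over all genes moved the same way in each. Apart from the changed threshold, the cause of these moves was not tested. Leaving out KI vehicle 1 and 4 changed both the number of libraries and the muscle content, which cannot be told apart. Leaving out each library in turn gave 6 to 12 calls with vehicle (6 without WT vehicle 3, WT vehicle 4, KI vehicle 1 or KI vehicle 4), 6 to 13 with CFA (6 without KI CFA 2) and 17 to 20 averaged. In every alternative, leaving out libraries included, CFA against vehicle and the interaction gave 0 calls, and Kcnab1, Kcnj11, Kcnq5 and Kcnv1 kept their calls.

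Replicate numbers are shared by the groups but did not pair the libraries: 3 of 24 same-numbered pairs correlated above 0.1. With the number as a replicate block, 10 genes were called with vehicle, 11 with CFA and 20 averaged, and Kcnma1 was the call lost. A fit of only the compared groups was not run for averages and the interaction, which use all groups. Low genes such as Kcng1 and Kcnj14 have wide intervals at this depth.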
